A study of Mus musculus with 6 samples.

Results

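The 32 genes described here are immediate early genes and genes of the AP-1 transcription factor, taken by their symbols from a table of 54532 genes measured in mouse muscle by RNA sequencing. They comprise the Fos, Jun, Atf3, Crem and small Maf subunits, Egr1, Egr3, Srf and Myc, the Ier and Csrnp nuclear proteins, the Btg and Zfp36 families, and the early signalling genes Arc, Rgs2, Rnd3, Rhob and Plk2. The NR4A, KLF and DUSP families, which are also rapidly induced, were not included. All 32 passed the filter on low counts that left 14867 genes for testing.

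Muscle RNA was sequenced from 3 Igf2 conditional knockouts (Igf2 cKO, genotype Mck-Cre+; Igf2f/f) and from 3 Igf2f/f littermates without Cre (genotype Mck-Cre-; Igf2f/f), called controls here. The labels give 3 samples per genotype and do not say whether animals were pooled, so the p-values of the 3-against-3 tests measure the spread between these samples. All 6 carried Igf2 alleles with an exon between loxP sites on a C57BL/6 background, so Cre recombinase was present in the knockouts and absent from every control. The Mck promoter, from the muscle creatine kinase gene, drives Cre in striated muscle fibres, and cells of other types in the tissue keep the gene. The muscle, the age and the sex are not stated in the labels, and animals with Cre but no loxP sites were not analysed here. The study's title ties a lack of IGF2, a growth factor, to sarcopenia, the loss of muscle mass and function.

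Immediate early genes are transcribed within minutes of a stimulus such as a growth factor, contraction, calcium entry or injury, without new protein synthesis, and their mRNAs are short-lived. Many are switched on by serum response factor (SRF), bound to a CArG box, and by CREB, bound to a cAMP response element (CRE). Fos and Jun proteins pair through leucine zippers to form AP-1, which binds its own short DNA element. In skeletal muscle this group is known for its quick response to exercise and stretch.

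The libraries held between 16184371 and 17503334 counts in Igf2 cKO muscle and between 16335647 and 17905203 in controls. Igf2 itself had 33, 37 and 42 counts in Igf2 cKO replicates 1 to 3, against 60, 43 and 39 in control replicates 1 to 3 (log2 fold change -0.31, adjusted p = 0.751 by edgeR). These counts are summed over the gene, so they do not check the deletion. Fibre genes were abundant, with mean Acta1, the actin of skeletal fibres, at 34102 CPM (counts scaled by library size) in Igf2 cKO muscle and 37714 CPM in controls. The 32 early genes together took between 0.148% and 0.216% of the counts of Igf2 cKO libraries, highest in replicate 1, and between 0.106% and 0.192% of those of controls, highest in replicate 2. In bulk tissue, fewer cells of a type and less RNA per cell cannot be told apart.

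The start regions of these genes show which known elements lie near their promoters. RefSeq start windows (250 bases before to 50 after the start, GRCm38.p6), taken by symbol, were searched for 24 of the 32. Some of these 24 had several starts, which made 29 windows. The remaining members, Egr1 and Crem among them, were not searched, so the member counts below do not cover them. Bases outside the windows were not searched either, so the lack of a match does not mean that a gene lacks the element. A CArG box on either strand was in windows of 3 members (Zfp36, Srf and Rnd3), against 1.63% of all 32851 windows of the same length. The full CRE, TGACGTCA, was in windows of 3 members (Btg2, Plk2 and Maff), against 1.79% of all windows. Its core, TGACG, which lies within the full CRE, was in windows of 13 members, against 20.8% of all windows. The AP-1 element, TGACTCA or its reverse complement TGAGTCA, was in a window of 1 member, Csrnp1, against 5.2% of all windows. The element of the Egr factors, GCGGGGGCG or GCGTGGGCG, was in windows of 6 members (Fosb, Fosl2, Maff, Mafk, Srf and Zfp36), against 3.47% of all windows. A member was counted if any of its windows matched, out of 24 members with 29 windows, whereas the percentages are per window. The counts and percentages are thus not in the same unit. These matches describe letters in the windows and do not show binding. The stretches below are those of Csrnp1, the member that passed the test, of Fos, the member with the widest spread, and of the CArG and CRE genes other than Maff, with the searched element in capitals. They stand 5′ to 3′ on the strand of the gene, before the RefSeq start. The short stretch of Zfp36 overlaps an exon of that gene in the GENCODE annotation.
Csrnp1, chr9:119983024-119983143, minus strand, AP-1 elements: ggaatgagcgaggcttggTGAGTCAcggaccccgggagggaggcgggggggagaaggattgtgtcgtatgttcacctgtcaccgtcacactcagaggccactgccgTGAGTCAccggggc
Fos, chr12:85473740-85473859, plus strand, CRE cores: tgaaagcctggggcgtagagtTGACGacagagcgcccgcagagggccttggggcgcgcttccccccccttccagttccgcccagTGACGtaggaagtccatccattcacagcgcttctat
Zfp36, chr7:28379267-28379296, minus strand, CArG box: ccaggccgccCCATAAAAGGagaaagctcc
Srf, chr17:46556183-46556282, minus strand, CArG boxes: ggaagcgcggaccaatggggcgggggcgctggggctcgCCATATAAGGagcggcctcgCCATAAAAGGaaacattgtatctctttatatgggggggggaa
Rnd3, chr2:51149112-51149231, minus strand, CArG box: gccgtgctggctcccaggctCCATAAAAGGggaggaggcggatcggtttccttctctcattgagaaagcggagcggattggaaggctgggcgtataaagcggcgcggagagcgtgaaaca
Btg2, chr1:134079226-134079345, minus strand, CRE: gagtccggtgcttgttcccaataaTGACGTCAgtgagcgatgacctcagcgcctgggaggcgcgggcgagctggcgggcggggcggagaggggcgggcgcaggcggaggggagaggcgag
Plk2, chr13:110394924-110395043, plus strand, CRE: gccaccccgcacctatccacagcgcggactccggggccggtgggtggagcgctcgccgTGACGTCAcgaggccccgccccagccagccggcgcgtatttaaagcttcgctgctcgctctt

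The early genes did not move together between genotypes. Csrnp1, a cysteine- and serine-rich nuclear protein, rose in Igf2 cKO muscle and was the 1 member of 32 (3.12%) called at an adjusted p under 0.05 by edgeR, where 0.249% of all genes tested were called in either direction, 0.182% higher and 0.0673% lower. The log2 fold changes of 14 members lay above 0 and those of 18 below, with a median of -0.06, against a median of 0.00 over all genes tested. At an unadjusted p under 0.05 there were 12 members (37.5%), 6 higher and 6 lower, against 9.93% of all genes, 5.11% higher and 4.82% lower. In 9 members (28.1%) the 3 Igf2 cKO libraries lay wholly above or wholly below the 3 controls, against 15.5% of all genes. Of these, 4 were higher (Csrnp1, Atf3, Rhob and Mafg, 12.5% against 7.83% of all genes) and 5 lower (Ier5l, Btg1, Plk2, Ier3 and Myc, 15.6% against 7.67%). The members' median moved to 0.24 without control replicate 2, the highest of the 3 controls for most of them, and to -0.19 without Igf2 cKO replicate 1.

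**Figure D1:**
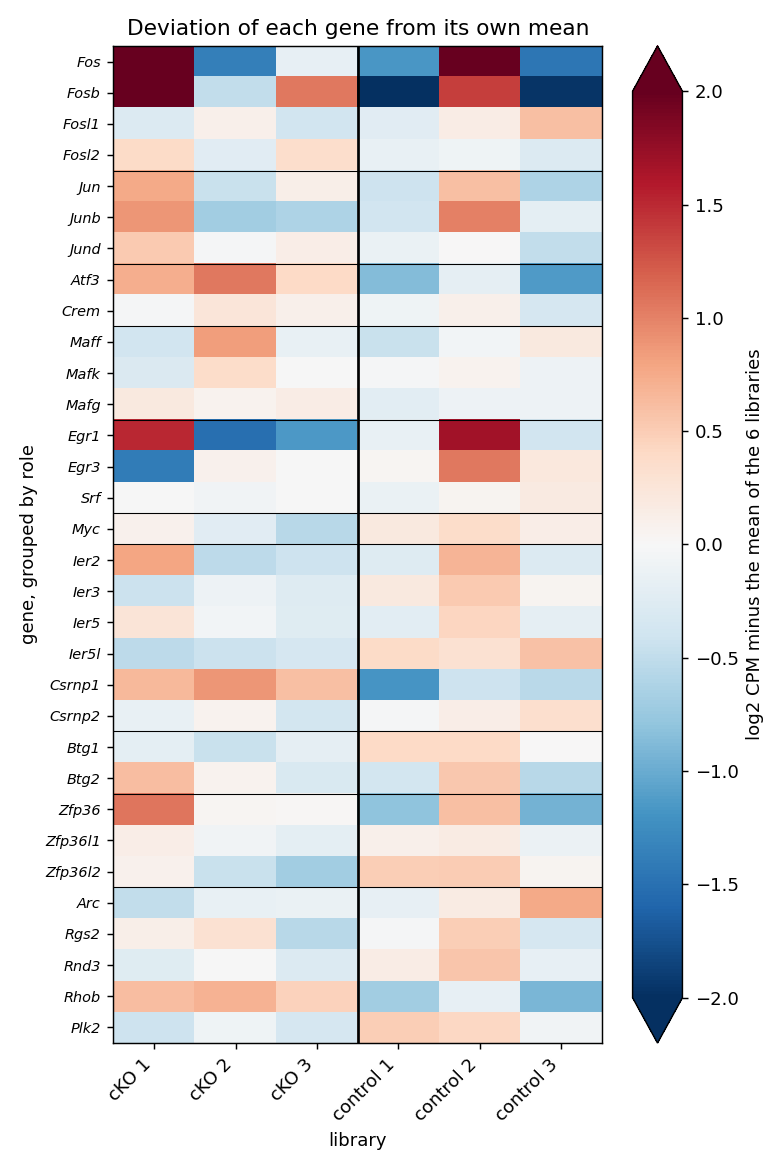
Each row is a gene and each column a library, with Igf2 cKO libraries left of controls, and the colour is log2 CPM minus the gene's mean over the 6 libraries. Fos, Fosb, Egr1, Junb and Ier2 are highest in Igf2 cKO replicate 1 and control replicate 2, while Csrnp1, Atf3 and Rhob are higher in all Igf2 cKO libraries than in all controls.

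Per length, Rhob was the most abundant member and Egr3 the least. By the authors' FPKM, which divides by gene length, Rhob averaged 175 ± 13.9 in Igf2 cKO muscle and 78.6 ± 21.7 in controls (SD, n = 3 each). Jun followed at 55.2 ± 22.7 FPKM in Igf2 cKO muscle and 45.8 ± 22.3 in controls, then Srf at 36.3 ± 0.864 FPKM in Igf2 cKO muscle and 38.0 ± 4.04 in controls. Jun, Srf and Jund, at 41.6 ± 8.36 FPKM in Igf2 cKO muscle and 31.1 ± 5.26 in controls, are neighbours whose ranges overlap in this order. At the low end stood Csrnp2 (1.61 ± 0.239 FPKM in Igf2 cKO muscle and 1.98 ± 0.251 in controls), Arc (0.603 ± 0.0839 FPKM in Igf2 cKO muscle and 0.881 ± 0.298 in controls) and Egr3 (0.405 ± 0.189 FPKM in Igf2 cKO muscle and 0.707 ± 0.284 in controls).

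Fos, the partner of Jun in classical AP-1, was high in 1 library of each genotype. Its level was 138, 12.4 and 28.6 CPM in Igf2 cKO replicates 1 to 3, against 14.3, 132 and 11.8 CPM in control replicates 1 to 3. Igf2 cKO replicate 1 and control replicate 2 were thus near each other and far above the remaining 4 libraries, with the highest library 11.1-fold above the lowest in Igf2 cKO muscle and 11.2-fold in controls. Between genotypes the log2 fold change came to 0.18 ± 1.03 (SE; 95% interval -2.17 to 2.53; edgeR adjusted p = 0.9754). With Igf2 cKO replicate 1 left out it became -1.36, and with control replicate 2 left out 2.18, so its direction rested on single libraries.

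Fosb and Egr1 had the same 2 libraries on top. Fosb, a Fos relative whose protein builds up with repeated stimulation in neurons, stood at 29.0, 4.89 and 14.2 CPM in Igf2 cKO replicates 1 to 3, against 1.68, 17.95 and 1.77 CPM in control replicates 1 to 3. The ranges overlapped, and the log2 fold change was 1.16 ± 0.89 (SE, adjusted p = 0.738 by edgeR), moving to 0.42 without Igf2 cKO replicate 1 and to 3.21 without control replicate 2. Egr1, a zinc finger factor that binds GC-rich promoters, stood at 113, 14.0 and 17.97 CPM in Igf2 cKO replicates 1 to 3, against 36.2, 128 and 30.7 CPM in control replicates 1 to 3. Outside the top library of each genotype, Egr1 was lower in both Igf2 cKO libraries than in both controls, whereas Fosb was higher. The log2 fold change of Egr1 was -0.42 ± 0.81 (SE, adjusted p = 0.916 by edgeR), moving to -2.02 with Igf2 cKO replicate 1 left out and to 0.53 with control replicate 2 left out. Its relative Egr3, which is needed for muscle spindles, did not share the top library in Igf2 cKO muscle. Egr3 had 0.837, 2.35 and 2.19 CPM in Igf2 cKO replicates 1 to 3, against 2.27, 4.59 and 2.55 CPM in control replicates 1 to 3 (adjusted p = 0.595 by edgeR).

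Junb, Ier2 and Zfp36 repeated the order at smaller size. Junb, an AP-1 subunit studied for its role in keeping fibre size, was at 66.0, 22.0 and 23.2 CPM in Igf2 cKO replicates 1 to 3, against 27.3, 72.0 and 31.3 CPM in control replicates 1 to 3. Ier2, a small nuclear early response protein, was at 57.8, 23.4 and 25.1 CPM in Igf2 cKO replicates 1 to 3, against 28.0, 53.6 and 27.7 CPM in control replicates 1 to 3. Zfp36 (tristetraprolin), which binds AU-rich elements and speeds the decay of early mRNAs, was at 135, 66.5 and 65.7 CPM in Igf2 cKO replicates 1 to 3, against 36.8, 98.3 and 33.6 CPM in control replicates 1 to 3. In each of the 3 genes Igf2 cKO replicate 1 and control replicate 2 were the highest of their group, and the groups overlapped. Adjusted p-values by edgeR were 0.926 for Junb, 0.984 for Ier2 and 0.674 for Zfp36. Junb, at a log2 fold change of -0.23, moved to -0.95 without Igf2 cKO replicate 1 and to 0.34 without control replicate 2, and Zfp36, at 0.66, moved to 0.23 with the first of these libraries left out and to 1.33 with the other.

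**Figure D2:**
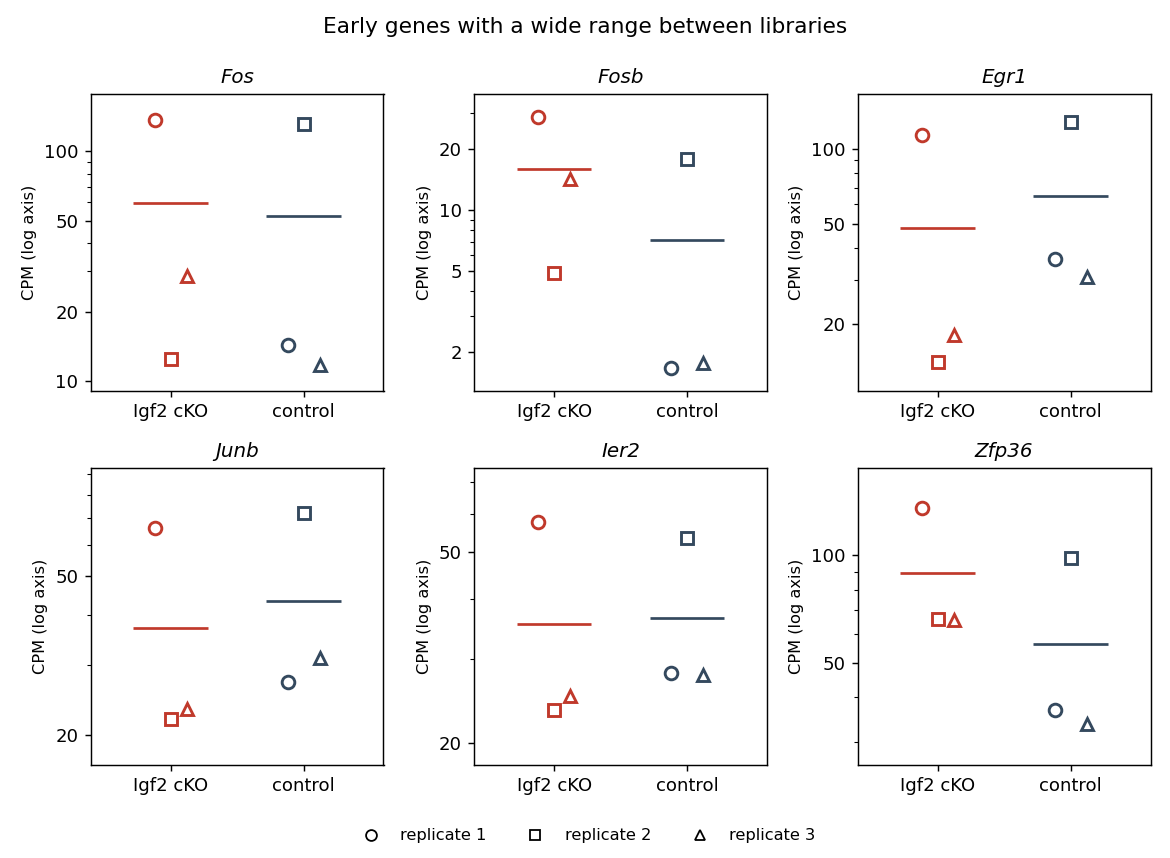
CPM on log axes for 6 early genes, Igf2 cKO libraries on the left and controls on the right of each panel, with a marker shape per replicate number and a line at the group mean (n = 3 each). Igf2 cKO replicate 1 and control replicate 2 are the highest of their groups in all 6 panels, and the groups overlap in each.

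Jun and Btg2 followed the same order more weakly. Jun was at 256, 111 and 164 CPM in Igf2 cKO replicates 1 to 3, against 114, 229 and 98.2 CPM in control replicates 1 to 3 (log2 fold change 0.27 ± 0.37, adjusted p = 0.874 by edgeR). Btg2, an antiproliferative protein that recruits the CCR4-NOT deadenylase, was at 100.2, 68.2 and 52.7 CPM in Igf2 cKO replicates 1 to 3, against 50.3, 94.4 and 44.4 CPM in control replicates 1 to 3 (0.22 ± 0.31, adjusted p = 0.876). Without Igf2 cKO replicate 1 the value of Jun was -0.096 and that of Btg2 -0.061. Counted over the whole group, control replicate 2 was the highest control for 24 of 32 members, against 28.6% of all genes tested. Igf2 cKO replicate 1 was the highest of its group for 15 members, against 35.6% of all genes. For the same 15 members control replicate 2 was also the highest control, a combination found in 10.2% of all genes. They were Fos, Fosb, Fosl2, Jun, Junb, Jund, Mafg, Egr1, Myc, Ier2, Ier5, Btg2, Zfp36, Zfp36l1 and Zfp36l2.

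Part of the group was among the genes that varied most between libraries of one genotype. The SD of log2 CPM within genotypes had a median of 0.31 over the 32 members and 0.19 over all genes tested. For Fos it was 1.84, the 8th largest of the 14867 genes, for Fosb 1.62 (the 17th) and for Egr1 1.41 (the 32nd). Altogether 9 members lay above the 90th percentile of all genes and 5 above the 95th. At the other end Mafg, a small Maf protein that lacks an activation domain, had an SD of 0.06, smaller than that of all but 3.89% of genes. Srf, the upstream factor of many early genes, had an SD of 0.11 and stood at 107, 103 and 107 CPM in Igf2 cKO replicates 1 to 3, against 98.5, 112 and 122 CPM in control replicates 1 to 3 (log2 fold change -0.07, adjusted p = 0.891 by edgeR).

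**Figure D3:**
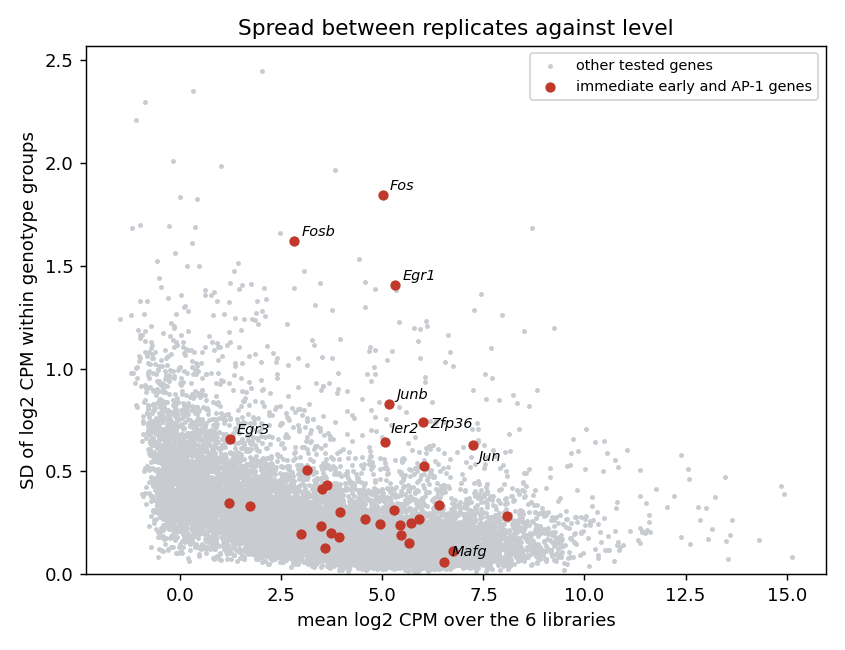
Each point is a tested gene, with its mean log2 CPM on the horizontal axis and the SD of log2 CPM within genotype groups on the vertical axis. Red points are the 32 early genes, of which Fos (1.84), Fosb (1.62) and Egr1 (1.41) stand far above most genes of their level and Mafg (0.06) near the bottom.

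The single-pair comparisons in the authors' deposited table gave opposite directions for some of these genes. Each comparison is of 1 Igf2 cKO library over the control library of the same number. Each sets 1 library against 1, so its p-values hold no measure of the spread between samples. In the authors' deposited table the log2 fold change of Fos was 3.27 for pair 1 (adjusted p = 2.05e-09), -3.40 for pair 2 (adjusted p = 6.89e-10) and 1.28 for pair 3 (adjusted p = 0.255). In the authors' deposited table, log2 fold changes were 1.65, -3.19 and -0.77 for Egr1 in pairs 1 to 3, and 4.11, -1.87 and 3.01 for Fosb. By the adjusted p of the authors' deposited table, 5 members were called higher and 0 lower in pair 1 (Fos, Fosb, Egr1, Zfp36 and Csrnp1), where 0.448% of all genes were called. In pair 2 of the table that the authors deposited, no member was called higher and 4 were called lower (Fos, Fosb, Egr1 and Junb), where 0.346% of all genes were called. In pair 3 the authors' deposited table called 1 member, Fosb, higher and 0 lower, where 0.716% of all genes were called. These comparisons share no library with each other. Pair 1 holds the Igf2 cKO library and pair 2 the control library in which Fos was high. In the authors' deposited table, 16 members kept 1 sign over the 3 pairs, 5 above 0 and 11 below, with no share over all genes computed. A member whose groups do not overlap has to keep its sign in such pairs, so the values of Csrnp1 (1.83, 1.29 and 1.15 in the authors' deposited table) repeat what its counts show.

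Csrnp1 (ENSMUSG00000032515, chromosome 9, 119971163 to 119984658, minus strand, GRCm38) rose 2.62-fold in Igf2 cKO muscle. It was at 24.2, 28.4 and 23.5 CPM in Igf2 cKO replicates 1 to 3, against 6.82, 11.6 and 10.6 CPM in control replicates 1 to 3. Every Igf2 cKO library was above every control. The highest Igf2 cKO library for Csrnp1 was replicate 2, which was the lowest of that genotype for Fos. This is a log2 fold change of 1.39 ± 0.19 (SE; 95% interval 0.96 to 1.83; edgeR adjusted p = 0.031). The call was kept without Igf2 cKO replicate 2 (adjusted p = 0.0441). It was lost without Igf2 cKO replicate 1 (0.0644) or 3 (0.0974) and after removal of control replicate 1 (0.0502), 2 (0.0613) or 3 (0.119), while the log2 fold change stayed between 1.19 and 1.54. The AP-1 elements shown above lie before 1 of the 4 RefSeq starts of Csrnp1. That stretch is inside the span of the gene given here and overlaps no annotated exon. The gene overlaps Cx3cr1, a microglia and macrophage receptor on the same strand, which had 28, 40 and 20 counts in Igf2 cKO replicates 1 to 3 and 92, 59 and 19 counts in control replicates 1 to 3. Its antisense partner 1700019L13Rik had 0 counts in each library. The related Csrnp2 was at 7.08, 8.17 and 6.03 CPM in Igf2 cKO replicates 1 to 3 and 7.69, 8.61 and 9.87 CPM in control replicates 1 to 3 (log2 fold change -0.30 ± 0.17, adjusted p = 0.63 by edgeR).

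Atf3 and Rhob had separate groups but missed the threshold over all genes. Atf3, a stress-induced partner of Jun that often represses, was at 18.7, 23.6 and 14.9 CPM in Igf2 cKO replicates 1 to 3, against 6.22, 10.1 and 5.17 CPM in control replicates 1 to 3. Its log2 fold change was 1.41 ± 0.26 (SE, 95% interval 0.81 to 2.00, adjusted p = 0.107 by edgeR). Rhob, a short-lived small GTPase found on endosomes, was at 420.4, 443 and 376 CPM in Igf2 cKO replicates 1 to 3, against 169, 243 and 145 CPM in control replicates 1 to 3. Its log2 fold change was 1.15 ± 0.19 (SE, 95% interval 0.72 to 1.59, adjusted p = 0.0707 by edgeR). All Igf2 cKO libraries of both genes were above all controls, and in both genes control replicate 2 was the highest control. Without control replicate 2 Rhob passed the threshold (1.39, adjusted p = 0.0408 by edgeR) and Atf3 did not (1.73, adjusted p = 0.0613). By DESeq2 both were called, with adjusted p-values of 5.73e-05 for Atf3 and 4.75e-07 for Rhob.

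**Figure D4:**
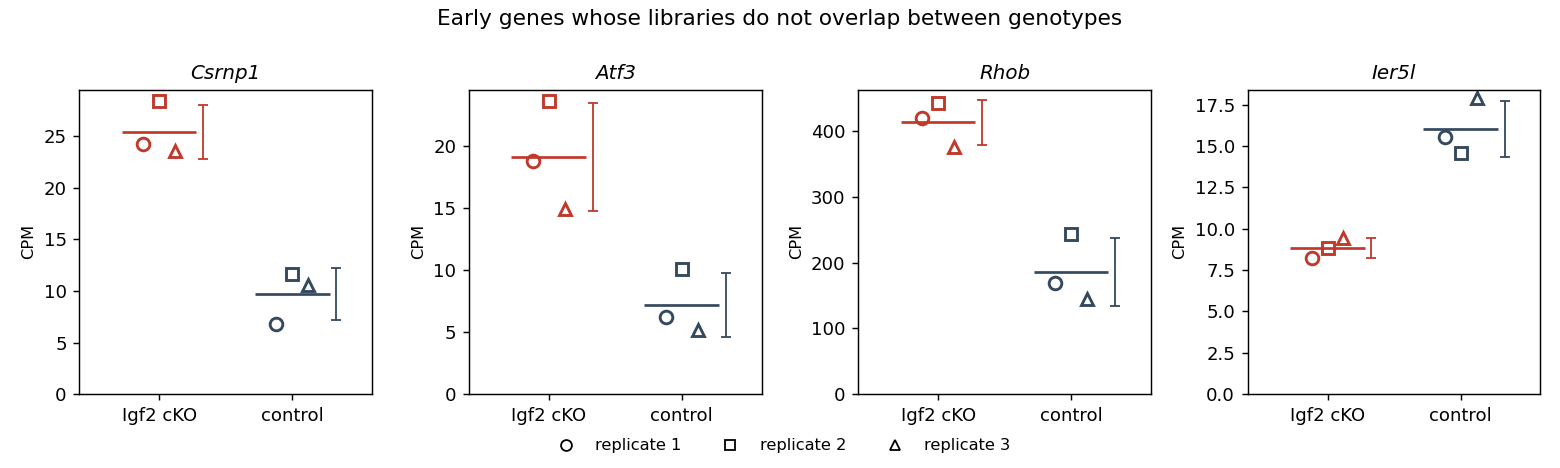
CPM from 0 for 4 early genes, Igf2 cKO libraries on the left and controls on the right of each panel, with a line at the mean and a bar of 1 SD either way (n = 3 each). The groups do not overlap, with Csrnp1, Atf3 and Rhob higher and Ier5l lower in all Igf2 cKO libraries.

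Ier5l, a relative of the early gene Ier5, was the lower member nearest the threshold. It was at 8.26, 8.85 and 9.46 CPM in Igf2 cKO replicates 1 to 3, against 15.5, 14.6 and 17.9 CPM in control replicates 1 to 3. The groups did not overlap, at a log2 fold change of -0.85 ± 0.13 (SE; 95% interval -1.15 to -0.55; edgeR adjusted p = 0.0529). It was called by DESeq2 (adjusted p = 0.000316) and by edgeR with upper quartile size factors (adjusted p = 0.0432). Its SD within genotypes was 0.13, below that of most members. Ier5, which promotes the activity of heat shock factor HSF1, was at 46.3, 37.4 and 32.8 CPM in Igf2 cKO replicates 1 to 3, against 33.6, 52.6 and 34.3 CPM in control replicates 1 to 3. Those groups overlapped (log2 fold change -0.05, adjusted p = 0.967 by edgeR).

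Of the remaining members with separate groups, Btg1, Plk2, Ier3 and Myc had lower values in Igf2 cKO muscle and none passed the threshold by edgeR. By DESeq2 Btg1 was called (adjusted p = 0.0428), and with no low-count filter edgeR called Btg1 and Plk2 (adjusted p = 0.0272 each). Btg1, the antiproliferative relative of Btg2, was at 38.8, 32.6 and 39.2 CPM in Igf2 cKO replicates 1 to 3, against 58.7, 58.2 and 44.5 CPM in control replicates 1 to 3 (log2 fold change -0.55 ± 0.13, adjusted p = 0.206 by edgeR). Plk2, a polo-like kinase, was at 23.0, 28.8 and 24.5 CPM in Igf2 cKO replicates 1 to 3, against 43.4, 41.0 and 29.4 CPM in control replicates 1 to 3 (-0.58 ± 0.16, adjusted p = 0.263). Both genes had their lowest control, replicate 3, close to the highest Igf2 cKO library. Ier3, a regulator of cell survival, was at 9.76, 12.2 and 10.9 CPM in Igf2 cKO replicates 1 to 3, against 15.0, 18.9 and 13.7 CPM in control replicates 1 to 3 (-0.54 ± 0.16, adjusted p = 0.284). Myc, a growth-promoting transcription factor, was at 11.7, 9.47 and 7.57 CPM in Igf2 cKO replicates 1 to 3, against 12.7, 14.2 and 12.1 CPM in control replicates 1 to 3 (-0.44 ± 0.17, adjusted p = 0.45). Myc groups were separate by a small margin. Mafg had higher values at the smallest of these sizes, with 106, 96.7 and 102 CPM in Igf2 cKO replicates 1 to 3, against 79.7, 85.6 and 85.4 CPM in control replicates 1 to 3 (0.28 ± 0.09, adjusted p = 0.331).

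Among the members whose groups overlapped, Zfp36l2, Jund and Fosl2 had an unadjusted p under 0.05. Zfp36l2, an AU-rich element binding protein like Zfp36, was at 90.03, 61.9 and 52.1 CPM in Igf2 cKO replicates 1 to 3, against 118, 120.5 and 87.8 CPM in control replicates 1 to 3. Igf2 cKO replicate 1 passed the lowest control there, and the log2 fold change was -0.68 ± 0.21 (SE, adjusted p = 0.311 by edgeR, 0.0204 with no low-count filter). Its relative Zfp36l1 had -0.09 ± 0.12 (adjusted p = 0.868) and Zfp36 0.66 ± 0.44 (adjusted p = 0.674), and differences between the 3 relatives were not tested. Jund, the Jun subunit with the steadiest expression in most cells, was at 85.8, 58.4 and 65.1 CPM in Igf2 cKO replicates 1 to 3, against 54.1, 60.0 and 42.6 CPM in control replicates 1 to 3 (0.42 ± 0.17, adjusted p = 0.469). Fosl2, a Fos relative without a strong activation domain, was at 68.0, 44.9 and 67.2 CPM in Igf2 cKO replicates 1 to 3, against 47.2, 49.4 and 43.3 CPM in control replicates 1 to 3 (0.36 ± 0.16, adjusted p = 0.499). In both genes Igf2 cKO replicates 1 and 3 exceeded all controls and replicate 2 did not.

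The other 7 members had adjusted p-values between 0.527 and 0.948 by edgeR. Fosl1, another Fos relative, was low, at 2.68, 3.47 and 2.48 CPM in Igf2 cKO replicates 1 to 3, against 2.76, 3.58 and 4.90 CPM in control replicates 1 to 3. Maff, a small Maf protein that is itself inducible, had 1 high library, at 6.64, 15.5 and 7.86 CPM in Igf2 cKO replicates 1 to 3, against 6.39, 8.39 and 9.94 CPM in control replicates 1 to 3. Maff was thus highest in Igf2 cKO replicate 2, where Fos and Egr1 were at their lowest of that genotype. Mafk, its steadier relative, had a log2 fold change of 0.07 ± 0.16, and Crem, the cAMP-responsive factor whose short form ICER represses, had 0.20 ± 0.14. Rnd3, an atypical small GTPase that acts on the actin cytoskeleton, had -0.38 ± 0.17, with an interval of -0.78 to 0.02. Rgs2, which shortens signalling through Gq proteins, had -0.09 ± 0.26. Arc, a synaptic protein best known in neurons, had 28, 32 and 34 counts in Igf2 cKO replicates 1 to 3, against 36, 44 and 57 counts in control replicates 1 to 3, which allowed an interval of -1.25 to 0.16.

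**Figure D5:**
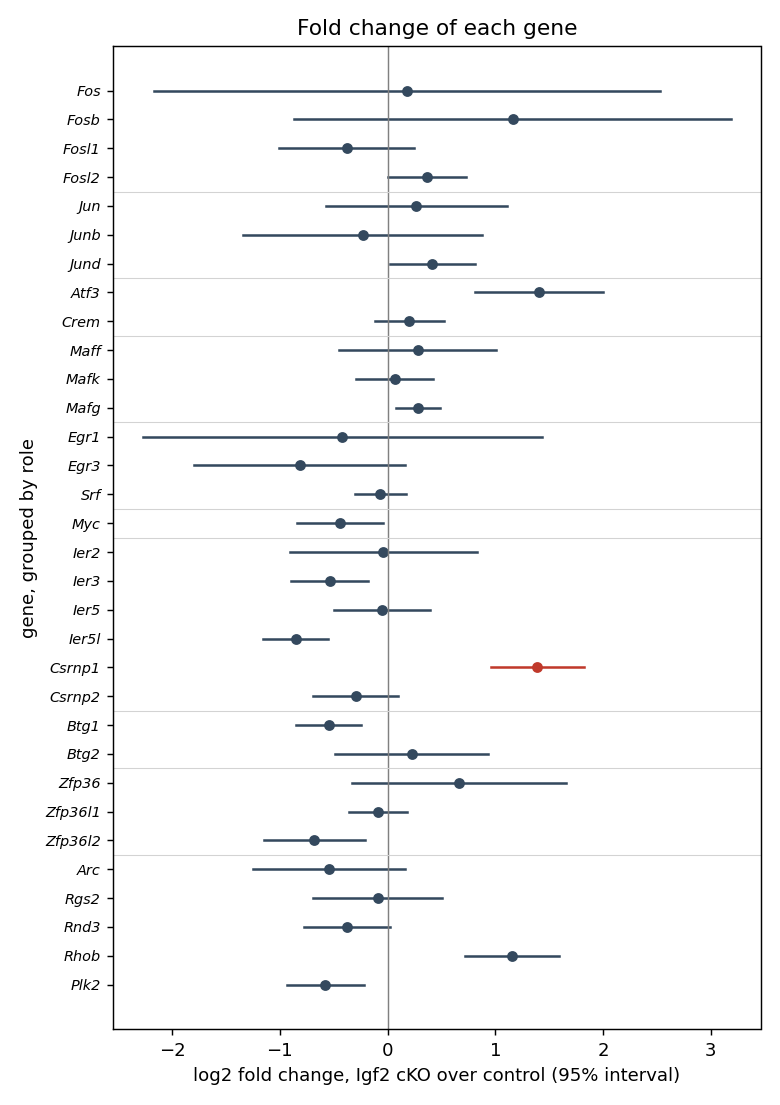
Points are log2 fold changes of the 32 early genes, Igf2 cKO over control, with 95% intervals from edgeR's quasi-likelihood fit (n = 3 each), grouped by role. Csrnp1, in red, is the member with an adjusted p under 0.05, and the intervals of Fos (-2.17 to 2.53), Fosb and Egr1 are the widest.

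Genes around the early genes were counted from lists drawn up for this comparison. Of 31 tested upstream kinases and transcription factors 0 passed the threshold in any of the 3 tools (edgeR, DESeq2, limma-voom). By edgeR 6 were under an unadjusted p of 0.05, 2 higher and 4 lower, against 9.93% of all genes tested. Rps6ka4, a stress-activated kinase of CREB, was at 0.34 (adjusted p = 0.312 by edgeR) and Map2k6, a kinase of p38, at -0.33 (adjusted p = 0.325). Of 18 tested other AP-1 partners and bZIP regulators 0 were called by any of the 3 tools and 0 had an unadjusted p under 0.05. Batf2 was at 0.82 (adjusted p = 0.599) and Jdp2, which represses AP-1, at 0.30 (adjusted p = 0.605). Medians were 0.01 and -0.01 over these lists.

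Over all 14867 genes tested, edgeR called 37 and DESeq2 214. Of 12 tested CREB and Crem targets 1 rose and 0 fell by edgeR and 5 were called by DESeq2. The edgeR call was Nfil3, a repressor of clock output genes (1.38 ± 0.20, adjusted p = 0.0459). The median of these targets was 0.62, with 5 genes wholly higher and 2 wholly lower in Igf2 cKO libraries, where 7.83% and 7.67% of all genes tested were so. Of 10 tested Egr targets and co-repressors 1 rose and 0 fell by edgeR and 2 were called by DESeq2, the edgeR call being Cdkn1a, the gene of p21, which halts the cell cycle (1.23 ± 0.14, adjusted p = 0.0156). Of 10 tested Btg, Tob and deadenylase genes 1 rose and 0 fell by edgeR and 1 was called by DESeq2, the edgeR call being Tob2, an antiproliferative relative of the Btg proteins (1.35 ± 0.20, adjusted p = 0.0459). Nfil3 was not called by limma-voom. With any 1 of the 3 controls left out, none of these 3 genes was called by edgeR.

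Several other lists held no call by edgeR or limma-voom, and DESeq2 called 3 genes of the SRF list and 1 of the Myc list. Of 22 tested SRF targets of the actin cytoskeleton 6 had an unadjusted p under 0.05 by edgeR, 5 higher and 1 lower. Over all genes tested this share was 9.93%. Acta2, smooth muscle actin, was at 0.80 (adjusted p = 0.0956 by edgeR) and Actc1, cardiac actin, at -1.44 (adjusted p = 0.162). The median of the SRF list was 0.09. Of 20 tested Myc partners and targets 4 had an unadjusted p under 0.05, with Mycn at -1.52 (adjusted p = 0.171) and Rrs1, a ribosome assembly factor, at -0.39 (adjusted p = 0.21). Of 13 tested Plk and Rgs relatives 1 had an unadjusted p under 0.05, Rgs16 (-1.06, adjusted p = 0.331), and Plk3 was at -0.53 (adjusted p = 0.532).

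Markers of the cell types in muscle were summed per library, as CPM, to stand beside the members with separate groups. In 3 lists the sums did not overlap between genotypes. All 14 fibre markers were tested and summed to between 120713 and 147681 CPM in Igf2 cKO muscle and between 148240 and 176580 in controls, with Myh4, the fast myosin, as the second most abundant (-0.54, adjusted p = 0.622). All 9 satellite cell markers, of which Spry1 and Heyl were the most abundant, summed to between 235 and 252 CPM in Igf2 cKO muscle and between 182 and 219 in controls. Of 8 red cell markers 7 were tested, led by Hbb-bs and Hba-a1, and summed to between 401 and 427 CPM in Igf2 cKO muscle and between 560 and 714 in controls. The part of these shifts in the values of the early genes was not tested.

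The sums of the other lists overlapped between genotypes, though some single markers did not. In Igf2 cKO libraries 4 of 9 smooth muscle markers were wholly higher, against 7.83% of all genes tested. Wholly lower were 3 of 10 endothelial and 2 of 11 macrophage markers, against 7.67% of all genes. All 10 endothelial markers, led by Cdh5 and Pecam1, summed to between 1173 and 1831 CPM in Igf2 cKO muscle and between 1625 and 1727 in controls, and all 9 smooth muscle markers, led by Rgs5 and Acta2, to between 1662 and 2042 CPM in Igf2 cKO muscle and between 1639 and 1815 in controls. The sums of all 11 macrophage markers lay between 394 and 551 CPM in Igf2 cKO muscle and between 348 and 682 in controls. Lyz2 and Csf1r were the most abundant of them. For these sums Igf2 cKO replicate 1 and control replicate 2 were the highest of their groups, as for Fos. Control replicate 1, at 661 CPM, was close to control replicate 2, whereas for Fos it was far below. The part of macrophages in the Fos pattern was not tested. The 8 Schwann cell markers, Pmp22 among the most abundant, were highest in Igf2 cKO replicate 1 (1181 CPM) and lowest in control replicate 2 (268 CPM). Fibroblast markers (all 10, led by Gsn and Col3a1) reached 10646 CPM at most in Igf2 cKO muscle and 11480 in controls, and adipocyte markers (all 8, led by Car3 and Fabp4) 4852 CPM at most in Igf2 cKO muscle and 3809 in controls. Of 9 neutrophil markers 3 were tested, led by Csf3r and S100a9, and summed to at most 3.90 CPM in Igf2 cKO muscle and 5.15 in controls. Of the 89 markers tested in all lists 0 were called by edgeR or limma-voom and 5 by DESeq2. By edgeR 16 of these markers had an unadjusted p under 0.05, against 9.93% of all genes tested. No listed marker was at 0 in all 6 libraries.

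Of the 32 members, 13 overlap another annotated gene and 12 of these overlap a gene on the opposite strand. Without a stated strand setting, reads in bases that Jun shares with its antisense partner Junos cannot be assigned to either gene. Junos had between 66 and 70 counts in Igf2 cKO libraries and between 72 and 88 in controls. The same holds for bases that Junb shares with Prdx2 and Fosl1 with Ccdc85b. Prdx2, a peroxiredoxin gene, had between 1865 and 2299 counts in the 6 libraries. Ccdc85b had between 747 and 1047 counts in Igf2 cKO libraries and between 926 and 1180 in controls. Overlaps were taken from gene spans, and neither their length nor the share of reads in them was measured.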

How the data were processed

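Muscle RNA of 3 Igf2 cKO and 3 control samples was extracted with Trizol and sequenced commercially (NovaSeq), per the labels. Not given in the sources used here are the aligner, the counter, its strand setting and the build. Gene coordinates are those of the deposited table, where 98.3% of the identifiers shared with GENCODE M21 (GRCm38) had the same start and end. The deposited counts are raw counts per gene. The authors' FPKM scales counts by gene length and library size, and served here to order levels between genes. The authors deposited log2 fold changes and p-values for 3 single pairs of libraries, by a method not stated. A further 6 columns did not match a sample title and were not used.

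Counts were tested with edgeR 4.0.16 (quasi-likelihood F test, TMM, filterByExpr, genotype as single term) in R 4.3.3. P-values were adjusted over 14867 genes by Benjamini-Hochberg, the standard error was derived from the F statistic, and calls were made at 0.05. CPM uses TMM library sizes, and log2 CPM a prior count of 2. Alternatives were other scalings and filters, DESeq2 1.42.0, limma-voom 3.58.1, a replicate block, other thresholds and leaving out each library. The labels do not say that replicate numbers mark litters or batches, so the numbers were not taken as pairs. Same-numbered libraries deviated together with correlations of 0.16, 0.06 and -0.04, and differently numbered ones with correlations from -0.18 to 0.12. With 3 libraries per group these values cannot settle whether the numbers mark pairs.

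The members and lists were chosen with earlier results of these data known. All members are named, with called genes of each list (up to 4, otherwise the 2 with the smallest p) and the 2 most abundant genes of each marker list. Some listed genes and lists are not reported here. Genes that overlap a member are named by position. The lists' Cyr61 and Ctgf were matched by these older symbols. Start sequences are from RefSeq (GRCm38.p6), searched on both strands.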

Additional observations from a re-analysis of the deposited data

How the results depend on the processing

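Changing the processing left the direction of all 32 early genes as reported in every setting that kept the 6 libraries. The count of all genes called was 37 of 14867 in the main fit and 282 of 26318 with no low-count filter. Of the same 14867 genes, 214 were called by DESeq2, 62 at an adjusted p under 0.1 and 39 with upper quartile size factors. The series' own cut-off (log2 fold change beyond 1 either way with an unadjusted p under 0.05) called 235 of them. Of the 32 early genes, 1 was called in the main fit, 7 with no low-count filter and 5 by DESeq2. The count was 3 at an adjusted p under 0.1, 3 by the series' own cut-off, 2 with upper quartile size factors and 3 with the replicate block. Pathway list genes called numbered 16 with no filter, 13 by DESeq2, 8 at the 0.1 threshold and 11 by the series' cut-off, against 4. With a single library left out, calls over all genes ran from 8 to 68. Those of early genes ran from 0 to 1 and those of the pathway lists from 0 to 5. The members' median log2 fold change ran from -0.19 to 0.24, and early genes with separate groups from 9 to 15. Groups of fewer libraries separate more easily, and the share of all genes with separate groups was not computed with a library left out. In those fits 11 members changed sign, none of them called. Their log2 fold changes ran from -1.36 to 2.18 (Fos), -0.096 to 0.73 (Jun), -0.95 to 0.34 (Junb), -0.18 to 0.51 (Maff), -0.12 to 0.21 (Mafk), -2.02 to 0.53 (Egr1), -0.15 to 0.0084 (Srf), -0.59 to 0.34 (Ier2), -0.19 to 0.19 (Ier5), -0.061 to 0.63 (Btg2) and -0.27 to 0.16 (Rgs2). The replicate block, for numbers that were not taken as pairs, called Csrnp1, Atf3 (adjusted p = 0.0151) and Rhob (adjusted p = 0.0336), and 35 genes in all. Over the 14 alternative fits the adjusted p of Csrnp1 ran from 4.95e-08 to 0.119, that of Rhob from 4.75e-07 to 0.24, that of Atf3 from 3.55e-05 to 0.281 and that of Ier5l from 0.000316 to 0.182. The causes were not tested. Arc, Egr3 and Fosl1, with under 100 counts in each library, had the least depth.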

Other observations

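Wide ranges in both genotypes were rare among all genes. Of 9064 genes with a mean of at least 10 CPM, 30 had a highest library at least 3-fold above the lowest in both Igf2 cKO muscle and controls, thresholds chosen after the values were seen. In 4 of the 30, Igf2 cKO replicate 1 and control replicate 2 were the highest of their groups, against 10.2% of all genes tested. Those 4 were Fos, Fosb, Egr1 and Cyr61, a matrix-associated early gene outside the 32 that is in the lists of AP-1 and SRF targets. Cyr61 stood at 128, 54.3 and 36.9 CPM in Igf2 cKO replicates 1 to 3, against 47.6, 155 and 45.7 CPM in control replicates 1 to 3 (log2 fold change -0.18, adjusted p = 0.951 by edgeR). Cyr61 and the genes named next were chosen after their values were seen. Among the others, the adipocyte genes Adipoq and Plin1 were highest in Igf2 cKO replicate 3 and control replicate 1, and the myelin gene Mbp in replicate 1 of both genotypes.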
